A study of Mus musculus with 12 samples.

Results

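The genes described are 10 that encode proteins of the spindle assembly checkpoint and the chromosomal passenger complex, *Bub1*, *Bub1b*, *Ttk*, *Bub3*, *Mad1l1*, *Mad2l1*, *Cdc20*, *Aurkb*, *Incenp* and *Birc5*. They were taken by symbol from tables of 24062 genes, and all 10 were found in both. In GRCm38 *Bub1* (ENSMUSG00000027379) and *Bub1b* (ENSMUSG00000040084) lie on chromosome 2, *Aurkb* and *Birc5* on chromosome 11, and *Cdc20*, *Mad1l1*, *Mad2l1*, *Bub3*, *Ttk* and *Incenp* on chromosomes 4, 5, 6, 7, 9 and 19. RNA-seq was performed on brain and spleen of 10-week-old C57BL/6 males, with 3 *Norad*+/+ and 3 *Norad*-/- libraries in each tissue, 12 in all. *Norad* is a long noncoding RNA that binds PUMILIO proteins, which repress mRNAs carrying PUMILIO response elements (PREs) in the 3' UTR. The *Norad*-/- mice lacked the gene in the germ line, so every cell type was affected. They came from CRISPR/Cas9 deletion lines of 3 independent founders made on the C57BL/6J substrain, and which founder gave which library was not stated. Values are FPKM, which scale reads by transcript length and sequencing depth, so that levels of different genes can be set side by side.

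The spindle assembly checkpoint holds back anaphase until the kinetochores of all chromosomes are attached to spindle microtubules. Unattached kinetochores recruit TTK, BUB1, BUBR1 (from *Bub1b*), BUB3, MAD1 and MAD2, and a soluble complex of MAD2, BUBR1 and BUB3 then blocks CDC20, the activator of the anaphase-promoting complex. The chromosomal passenger complex, with the kinase Aurora B (from *Aurkb*), the scaffold INCENP, survivin (from *Birc5*) and borealin (from *Cdca8*), releases faulty attachments and later acts in cytokinesis. Most of these genes are transcribed in G2 and mitosis, so their RNA is plentiful in tissue with many dividing cells, such as spleen, and scarce in adult brain.

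Sequences bearing on PUMILIO binding are shown first, since *Norad* itself carries 11 copies of the PRE (TGTANATA) in its transcript of 4915 bases. For every gene the longest 3' UTR in GENCODE M21 (GRCm38) was searched for these letters on the transcript strand. At least 1 PRE was found in 5 of the 10 genes, where 24% of 19279 genes with an annotated 3' UTR had one. The sites are printed 5' to 3' with 8 bases on either side and the PRE in capitals.
*Bub3*: taagtgatTGTAAATAgcagttct
*Mad2l1*, first site: gattttgtTGTATATAtcttgagc
*Mad2l1*, second site: acctcatcTGTAGATAttttttca
*Ttk*: aagagctcTGTAAATAaagcgtca
*Incenp*: cagtactcTGTAAATAaatagatt
*Birc5*: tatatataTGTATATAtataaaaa
*Mad2l1* was the one gene with 2 sites, in the longest of these UTRs (6802 bases). No PRE was found in *Bub1*, *Bub1b*, *Mad1l1*, *Cdc20* or *Aurkb*, whose longest 3' UTRs were 121, 272, 427, 62 and 603 bases. The relaxed form with any last base, which the study also used, was not searched. A match of letters is a description of the sequence and not a measured binding site.

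Promoter sequences were searched because genes of G2 and mitosis are known to share a pair of elements, the cell cycle genes homology region (CHR, TTTGAA) and the CCAAT box. RefSeq promoters (GRCm38.p6, 250 bases before to 50 bases after the start) were matched for 8 of the 10 genes, with *Aurkb* and *Incenp* the others, and both strands were read. The CHR letters lay in 4 of the 8 genes, against 20.2% of 27025 genes with a promoter. A CCAAT box lay in 5, against 41.1% of genes, and 2 or more in 4, against 13.3%. Both kinds of element lay in the promoters of *Bub1b*, *Bub3*, *Ttk* and *Cdc20*, against 7.97% of genes. The 80 bases before the start are printed for the kinases *Bub1* and *Ttk* and for *Cdc20*, with a stretch of 30 bases for *Bub3*, and CCAAT (or ATTGG) and CHR (or TTCAAA) letters in capitals.
*Bub1*, chr2:127831860-127831939, minus strand: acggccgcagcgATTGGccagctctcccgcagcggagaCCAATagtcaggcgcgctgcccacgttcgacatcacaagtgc
*Ttk*, chr9:83834609-83834688, plus strand: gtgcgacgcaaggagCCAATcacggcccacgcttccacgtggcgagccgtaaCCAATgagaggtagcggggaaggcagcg
*Cdc20*, chr4:118437344-118437423, minus strand: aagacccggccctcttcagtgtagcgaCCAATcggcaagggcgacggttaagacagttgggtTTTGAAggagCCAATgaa
*Bub3*, chr7:131560321-131560350, plus strand: ttggcgTTCAAAatcagCCAATgataggcc
The CHR letters of *Ttk* and *Bub1b* lie after the start, at positions 8 and 41, and are not printed. In *Mad1l1*, *Mad2l1* and *Birc5* neither TTTGAA nor CCAAT was found in this window. The CHR variant TTTAAA lay in *Birc5* alone of the 8, at position -220, and is in 14.9% of genes. The E2F letters TTTCCCGC and TTTGGCGC were found in none of the 8, and are in 1.24% and 0.585% of genes.

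*Norad* checked the genotype labels. The *Norad*+/+ libraries held 42.9 to 62.0 FPKM of it in spleen and 206 to 635 in brain, and no *Norad*-/- library exceeded 0.0173 FPKM. Estimated depth was 28.4 to 36.7 M reads. In *Norad*+/+ spleen replicate 3, 8 pancreas markers summed to 307 FPKM, against 3.19 to 9.59 in the other spleen libraries, and 7 liver markers to 127 FPKM, against 0.236 to 1.02. The 6 pituitary markers measured reached a sum of 1338 FPKM in *Norad*-/- brain replicate 3, against 0.808 to 1.48 in the other brain libraries. *Norad*+/+ brain replicate 3 had the lowest correlation with the other brain libraries (median Spearman 0.949) and *Norad*+/+ spleen replicate 3 with the other spleen libraries (0.948). The main spleen values are given with and without *Norad*+/+ replicate 3, and brain values also without a library where it moved them. B cell markers summed to 1421 to 1855 FPKM in spleen, and neuron markers to 1948 to 2628 FPKM in brain.

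Levels in spleen were compared first. All 10 genes had lower means in *Norad*-/- than in *Norad*+/+ spleen, from 0.354 times the *Norad*+/+ mean for *Bub1* to 0.886 times for *Bub3*. None of the 10 passed limma at an adjusted p of 0.05, where 0.0323% of 12397 genes did in both directions. At an unadjusted p under 0.05 there were 8 lower and 0 higher, beside 13.6% of all genes lower. All 10 log2 fold changes were below 0, as were 53.8% of all genes, and their median was -1.07, beside -0.02 for all genes tested. Every *Norad*-/- library lay below every *Norad*+/+ library for 5 of the 10, beside 14.9% of all genes.

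**Figure D1:**
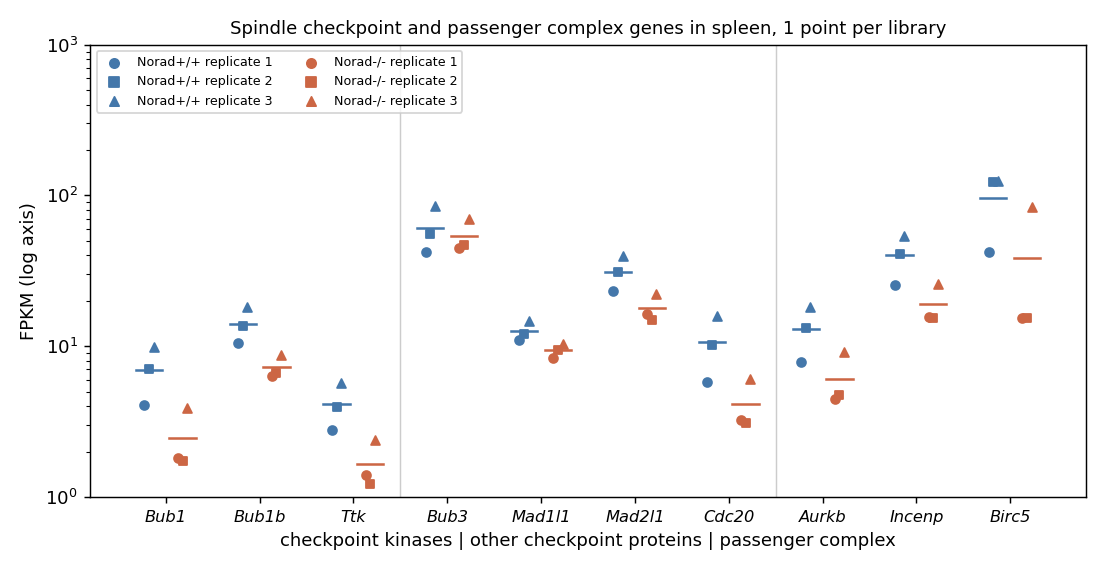
FPKM of the 10 genes in spleen on a log axis. Each point is 1 library (colour for genotype, shape for replicate number) and short lines are means of 3 libraries. The *Norad*+/+ replicate 3 point is the highest for all 10 genes, and the *Norad*-/- replicate 3 point is the highest of its genotype.

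Among the checkpoint kinases the genotypes did not overlap for any of the 3. *Bub1*, which phosphorylates histone H2A at kinetochores and recruits shugoshin, had 4.10, 7.07 and 9.83 FPKM in the *Norad*+/+ libraries and 1.82, 1.72 and 3.89 in the *Norad*-/- libraries. The nearest values of the groups were *Norad*-/- replicate 3 and *Norad*+/+ replicate 1. Its log2 fold change was -1.47 (standard error 0.42, limma adjusted p = 0.181). *Bub1b*, whose product BUBR1 binds and blocks CDC20, had 10.5, 13.6 and 18.2 FPKM against 6.37, 6.67 and 8.74. All 3 *Norad*-/- values were below the lowest *Norad*+/+ value, and the log2 fold change was -0.92 (standard error 0.22, limma adjusted p = 0.159), the smallest adjusted p of the 10. *Ttk*, the kinase that starts checkpoint signalling and is also called MPS1, had 2.77, 3.92 and 5.70 FPKM against 1.39, 1.21 and 2.38. It was the least abundant of the 10 in spleen, its groups did not overlap, and its log2 fold change was -1.26 (standard error 0.34, limma adjusted p = 0.174).

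The other checkpoint proteins differed among themselves. *Mad2l1*, whose product MAD2 changes shape on MAD1 and then captures CDC20, had 23.2, 31.0 and 39.6 FPKM in *Norad*+/+ libraries against 16.2, 15.0 and 22.3 in *Norad*-/- libraries. The groups did not overlap, with a log2 fold change of -0.79 (standard error 0.23, limma adjusted p = 0.184). *Mad1l1*, which encodes the kinetochore platform for MAD2, had 11, 12 and 14.7 FPKM against 8.41, 9.40 and 10.4. Its groups also did not overlap, but the difference was small, at -0.41 (standard error 0.14, limma adjusted p = 0.197). Its exons overlap those of an antisense gene on the opposite strand (Gm16121), and whether the authors' FPKM used strand was not stated. *Cdc20*, which encodes the activator that the checkpoint inhibits, had 5.74, 10.1 and 15.9 FPKM against 3.25, 3.09 and 6.07. *Norad*-/- replicate 3 exceeded *Norad*+/+ replicate 1, so the groups overlapped, and the log2 fold change was -1.28 (standard error 0.42, limma adjusted p = 0.194). Its exons overlap those of *Elovl1* on the opposite strand. *Bub3*, the adaptor that carries BUB1 and BUBR1 to kinetochores, stood apart from the rest. Its values were 42.1, 55.3 and 84.8 FPKM in *Norad*+/+ libraries against 44.9, 46.6 and 70.0 in *Norad*-/- libraries. These groups overlapped widely, and the log2 fold change was -0.14 (95% interval -0.85 to 0.57, limma adjusted p = 0.81). Without *Norad*+/+ spleen replicate 3 it was 0.13.

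For the chromosomal passenger complex all groups overlapped. *Aurkb*, its kinase, had 7.87, 13.2 and 18.1 FPKM against 4.45, 4.73 and 9.11. Only *Norad*-/- replicate 3 reached into the *Norad*+/+ range, and the log2 fold change was -1.09 (standard error 0.39, limma adjusted p = 0.205). *Incenp*, its scaffold, had 25.3, 41.1 and 54.1 FPKM against 15.7, 15.5 and 25.9. Here the overlap again came from *Norad*-/- replicate 3, just above *Norad*+/+ replicate 1, with a log2 fold change of -1.05 (standard error 0.33, limma adjusted p = 0.187). *Birc5*, whose product survivin brings the complex to centromeres, had 42.4, 123 and 125 FPKM against 15.4, 15.4 and 84.2. It had both the lowest fitted value and the widest interval of the 10, at -1.67 (95% interval -3.54 to 0.20, limma adjusted p = 0.273). *Birc5* varied 8.10-fold from the lowest to the highest spleen library, and *Mad1l1* 1.75-fold.

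The libraries kept much the same order for all 10 genes. *Norad*+/+ replicate 3 was the highest spleen library for 10 of 10, and *Norad*-/- replicates 1 and 2 were the lowest pair for 9 of 10, the exception being *Bub3*. *Norad*-/- replicate 3 exceeded *Norad*+/+ replicate 1 for 5 of the 10. Without *Norad*+/+ spleen replicate 3, the library with pancreas and liver markers, 9 of 10 log2 fold changes were below 0, 4 had an unadjusted p under 0.05 and the median was -0.81. The whole table then had 7.34% of genes lower at that threshold. The kinases then had -1.19 (*Bub1*), -0.72 (*Bub1b*) and -1.0 (*Ttk*). For *Mad2l1*, *Mad1l1* and *Cdc20* the values were -0.61, -0.29 and -0.93, and for *Aurkb*, *Incenp* and *Birc5* -0.81, -0.80 and -1.41. All 9 stayed below 0, and their adjusted p ran from 0.303 to 0.493 (limma). Without *Norad*-/- spleen replicate 3, 9 had an unadjusted p under 0.05, beside 13% of all genes lower, the median was -1.35 and the smallest adjusted p was 0.0847 (limma, *Bub1*). With each library rescaled to a constant sum (TPM) the median over all genes was 0.10 rather than -0.02, and that of the 10 genes was -0.95, all 10 staying below 0. With TPM, 9.21% of all genes were lower and 12.3% higher at an unadjusted p under 0.05, where the FPKM gave 13.6% and 7.42%.

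The ratio of members within a library does not depend on its depth or scaling, and 9 pairs were compared between genotypes in spleen by two-sided exact permutation tests, for which 0.1 is the smallest p that 3 against 3 libraries allow. *Bub3* per *Bub1b*, which bind each other in the checkpoint complex, was 4.02, 4.08 and 4.67 in *Norad*+/+ libraries against 7.05, 6.99 and 8.01 in *Norad*-/- libraries. The groups did not overlap, with means of 4.26 ± 0.361 and 7.35 ± 0.571 (SD, n = 3 each, exact permutation p = 0.1, adjusted p = 0.3 over the 9 pairs). The *Norad*+/+ mean was 4.05 without replicate 3. *Bub1* per *Incenp* was 0.162, 0.172 and 0.182 against 0.116, 0.111 and 0.15. Again the groups did not overlap (exact permutation p = 0.1, adjusted p = 0.3), and the *Norad*+/+ mean was 0.172, or 0.167 without replicate 3. *Aurkb* per *Incenp*, the kinase relative to its scaffold, was 0.312, 0.323 and 0.335 against 0.284, 0.306 and 0.351. This ratio differed by less than the spread between libraries, with means of 0.323 ± 0.0118 and 0.314 ± 0.0341 (SD, n = 3 each, exact permutation p = 0.6), while *Incenp* itself varied 3.50-fold over the same 6 libraries. *Birc5* per *Aurkb* ran from 5.39 to 9.30 in *Norad*+/+ and from 3.25 to 9.24 in *Norad*-/- spleen (exact permutation p = 0.3), so survivin RNA did not keep step with the kinase in every library. The groups overlapped for *Bub1* per *Bub1b*, *Ttk* per *Bub1b*, *Mad2l1* per *Mad1l1* and *Cdc20* per *Mad2l1* (exact permutation p = 0.2 each). They also did for *Birc5* per *Incenp* (exact permutation p = 0.4). How often ratios of other genes separate the genotypes was not computed.

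**Figure D2:**
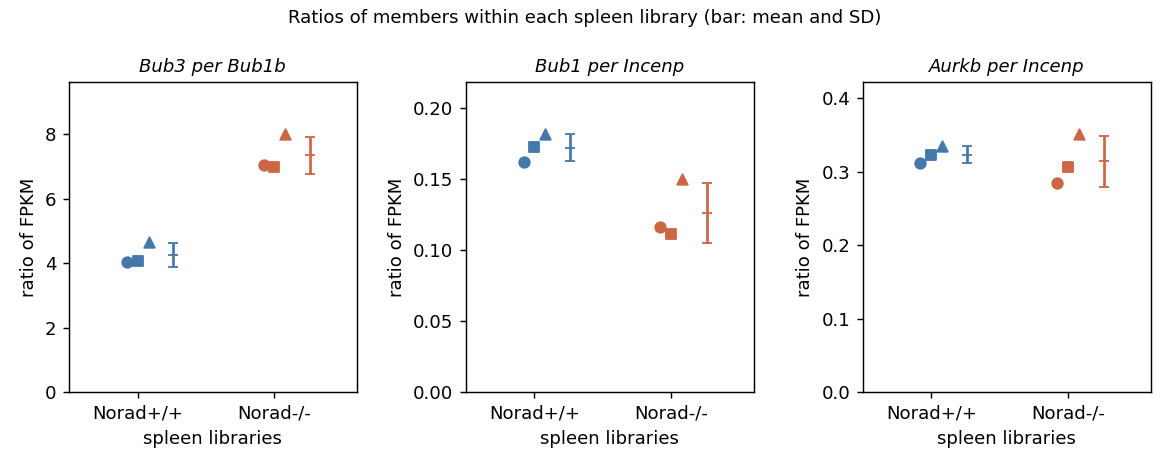
Ratios of FPKM within each spleen library for *Bub3* per *Bub1b*, *Bub1* per *Incenp* and *Aurkb* per *Incenp*, with vertical axes from 0. Points are libraries (blue *Norad*+/+, orange *Norad*-/-; circle, square and triangle for replicates 1 to 3) and bars are mean and SD of 3 libraries. The genotypes are apart in the first and second panels and overlap in the third.

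Other genes of the pathway were counted from lists. Over all genes tested in spleen, 53.8% had log2 fold changes below 0, and at an unadjusted p under 0.05 13.6% were lower and 7.42% higher. Of 21 tested genes of kinetochores, the checkpoint and the passenger complex, 20 were below 0 in *Norad*-/- spleen with a median of -1.01. At an unadjusted p under 0.05, 15 of them were lower and 0 higher. None of the 21 passed the adjusted threshold (limma). Those with the smallest p were *Trip13*, the ATPase that takes MAD2 complexes apart (-0.97, adjusted p = 0.141), *Zwilch*, of the complex that brings MAD1 to kinetochores (-1.16, adjusted p = 0.16), *Sgol2*, which protects cohesin (-1.01, adjusted p = 0.177), and *Casc5*, also called *Knl1*, the kinetochore scaffold for BUB1 (-1.36, adjusted p = 0.178). *Cdca8*, which encodes borealin, the remaining passenger complex subunit, had -1.41 (adjusted p = 0.198), and was singled out after its values were seen. The anaphase-promoting complex, on which the checkpoint acts, was less uniform. Of its 17 tested subunits and regulators 13 were below 0 with a median of -0.19, and 4 were lower and 1 higher at an unadjusted p under 0.05. The smallest p were those of the subunits *Cdc23* (-0.49), *Anapc16* (0.35) and *Anapc1* (-0.18), and of the inhibitor *Fbxo5* (-1.15), with limma adjusted p from 0.152 to 0.214. Of 8 genes for substrates of the complex or for proteins downstream of it, 8 were below 0 with a median of -1.41. Among them were *Nek2*, a centrosome kinase (-1.34), *Espl1*, which encodes separase (-1.05), *Cdk1*, the mitotic kinase (-1.66), and *Kif22*, a chromosome-arm motor (-1.30). Paralogues of the 10 genes lay on both sides, with 4 of 8 below 0 and a median of 0.05. *Aurka*, the spindle pole paralogue of *Aurkb*, had -1.40, and *Birc6* and *Birc2*, of the same family as *Birc5*, had 0.33 and 0.22, with limma adjusted p from 0.176 to 0.234. Without *Norad*+/+ spleen replicate 3 the medians of these lists, in the same order, were -0.85, -0.15, -1.17 and 0.08. Then 8 genes of the first list were lower at an unadjusted p under 0.05, beside 7.34% of all genes.

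Genes of dividing cells that do not act in the checkpoint, mostly of DNA replication, were lower in the same libraries. All 20 had log2 fold changes below 0, beside 53.8% of all genes, with a median of -1.16, close to that of the checkpoint genes. At an unadjusted p under 0.05, 18 were lower, beside 13.6% of all genes. *Lig1* (-1.71), *Mcm5* (-1.29), *Gins2* (-1.11) and *Mcm2* (-1.19) were smallest in p (limma adjusted p = 0.141 to 0.181). Their summed level was 477, 771 and 1060 FPKM in *Norad*+/+ libraries against 261, 270 and 482 FPKM in *Norad*-/- libraries. Without *Norad*+/+ replicate 3 all 20 were below 0 with a median of -0.92, and 13 had an unadjusted p under 0.05, beside 7.34% of all genes lower. On the log2 scale the deviation of each checkpoint gene from its own mean was set beside that of the mean of these 20 genes, as a description over 6 libraries that share their depth and scaling. *Incenp* stayed within 0.12 of the list in every library while its own level ranged over 1.80. *Aurkb* stayed within 0.13 and *Ttk* within 0.15, with own ranges of 2.0 and 2.15. By contrast *Bub3* departed from the list by up to 0.67, *Mad1l1* by up to 0.66 and *Birc5* by up to 0.82. For *Mad1l1* the departure came from a flatter course than that of the list. *Bub3* lay below the list in each *Norad*+/+ library (-0.42, -0.67 and -0.47) and above it in each *Norad*-/- library (0.58, 0.60 and 0.37). *Birc5* lay above the list in *Norad*-/- replicate 3 (0.82) and *Norad*+/+ replicate 2 (0.68). It lay below the list in *Norad*-/- replicates 1 and 2 (-0.77 and -0.80).

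**Figure D3:**
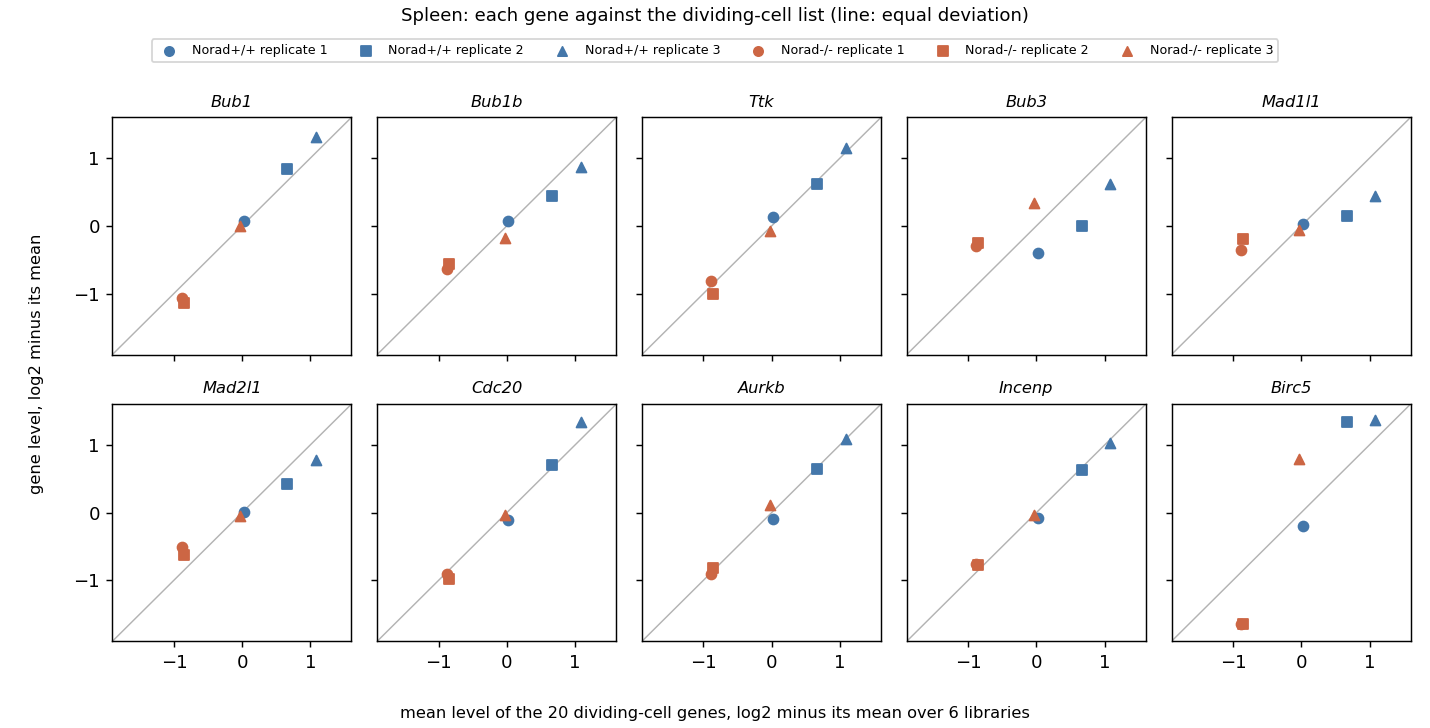
Level of each gene in spleen against the mean level of 20 genes of dividing cells outside the checkpoint, both as log2(FPKM + 0.1) minus the mean over 6 libraries. Each point is 1 library and the line marks equal deviation. *Incenp*, *Aurkb* and *Ttk* lie along the line, *Mad1l1* is flatter, and *Birc5* scatters up to 0.82 from it. *Bub3* lies below the line in *Norad*+/+ and above it in *Norad*-/- libraries.

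Markers of red cell precursors moved with these genes, and those of neutrophil precursors and megakaryocytes did so in part. Red cell precursor markers (28 measured, 0 at 0 FPKM) summed to 1266, 3137 and 4347 FPKM in *Norad*+/+ libraries against 153, 131 and 1714 FPKM in *Norad*-/- libraries. Of the 28, 28 had log2 fold changes below 0 with a median of -3.60, among them *Alas2*, which starts haem synthesis in red cells (-2.26, limma adjusted p = 0.189). Without *Norad*+/+ replicate 3 all 28 were below 0 with a median of -2.99. Neutrophil precursor markers (10) summed to 139, 612 and 387 FPKM against 67.4, 17.5 and 564 FPKM, and 8 megakaryocyte markers to 166, 312 and 237 against 86.5, 70.6 and 218 FPKM. Both of these sums were highest in *Norad*+/+ replicate 2. At an unadjusted p under 0.05 (limma) 27 red cell precursor, 0 neutrophil precursor and 2 megakaryocyte markers were lower, beside 13.6% of all genes. The libraries lowest in the checkpoint genes, *Norad*-/- replicates 1 and 2, were also the lowest in each of these lists. Of 7 germinal centre B cell markers, which mark another dividing population of spleen, 1 was below 0, with a median of 0.15. With the mean level of the 20 genes of dividing cells as a covariate, the median of the 10 checkpoint genes was 0.04 and 5 of 10 were below 0. With that of the red cell precursor markers it was -0.27 and 8 of 10 were below 0. No gene of the 10 had an adjusted p below 0.548 (limma) in either fit. Both covariates were measured in the same libraries and differ between the genotypes, so these fits cannot separate them from genotype. The part that cell composition has in the difference was not tested. In bulk tissue fewer cells of a type and less RNA per cell cannot be told apart.

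In brain the same genes were mostly scarce. 6 of the 10 had means under 1 FPKM over the 6 libraries, namely *Bub1*, *Bub1b*, *Ttk*, *Cdc20*, *Aurkb* and *Birc5*, and 4 were above, *Bub3*, *Mad1l1*, *Mad2l1* and *Incenp*. Of these 4, 0 passed limma at an adjusted p of 0.05, where 0.0153% of 13051 genes did. None had an unadjusted p under 0.05, where 2.89% of genes were lower and 3.73% higher. Every *Norad*-/- library lay below every *Norad*+/+ library for 1 of the 10, *Cdc20*, and above for 0. Of the 13051 genes tested 6.56% lay below and 10.6% above, but that set leaves out *Cdc20* and the other genes under 1 FPKM. The share among such low genes was not computed.

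*Bub3* was the most abundant of the 10 in brain, with 33.4, 29.1 and 29.1 FPKM in *Norad*+/+ and 28.4, 31.6 and 34.9 in *Norad*-/- libraries. The groups overlapped fully, with a log2 fold change of 0.05 (95% interval -0.24 to 0.33, limma adjusted p = 0.91) and of -0.02 without *Norad*-/- brain replicate 3, the library with pituitary markers. *Mad2l1* had 4.48, 4.77 and 4.83 FPKM against 4.57, 4.67 and 4.45, the narrowest spread of these 4 genes, and a log2 fold change of -0.04 (95% interval -0.24 to 0.17, limma adjusted p = 0.901). *Mad1l1* had 7.59, 7.77 and 11.2 FPKM against 7.40, 7.49 and 8.11. Its high value belonged to *Norad*+/+ brain replicate 3, and the log2 fold change went from -0.18 to -0.004 without that library. *Incenp* had 6.60, 6.62 and 15.2 FPKM against 6.38, 6.55 and 7.09. The 15.2 was again in *Norad*+/+ brain replicate 3, and the log2 fold change of -0.38 (standard error 0.33, limma adjusted p = 0.764) became 0.01 without it.

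**Figure D4:**
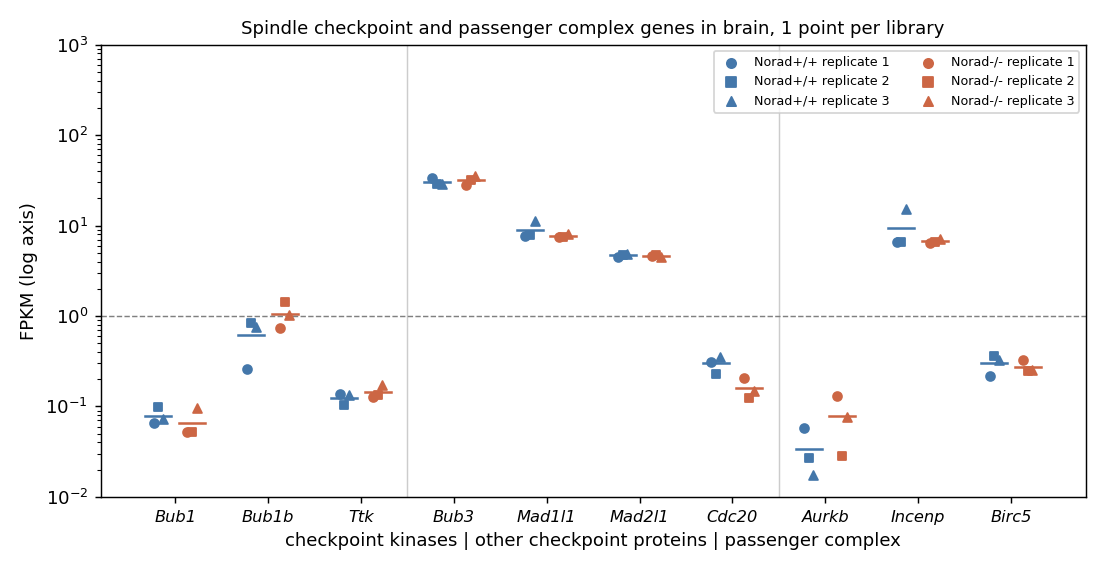
FPKM of the 10 genes in brain on a log axis, with colours, shapes and mean lines as in spleen. The dashed line marks the filter of 1 FPKM, and *Incenp* in *Norad*+/+ replicate 3 stands at 15.2 FPKM above the other 5 libraries.

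Reads for the 6 scarce genes were estimated from FPKM, transcript length and depth. *Cdc20*, whose exons overlap those of *Elovl1*, had 0.313, 0.230 and 0.356 FPKM in *Norad*+/+ and 0.208, 0.125 and 0.15 in *Norad*-/- brain. This was about 7.96 to 19.7 reads a library. In a fit that kept low genes the log2 fold change was -0.61 (unadjusted p = 0.0161 from limma over all genes, adjusted p = 0.722), and the *Norad*-/- values lay below all *Norad*+/+ values. *Bub1b* had 0.257, 0.842 and 0.760 FPKM against 0.737, 1.42 and 1.02, on about 33.0 to 113 and 93.8 to 184 reads a library. Its log2 fold change of 0.77 (standard error 0.42, limma adjusted p = 0.755) leaned opposite to spleen. It was 0.32 without *Norad*+/+ replicate 1, the lowest library. *Aurkb* was the scarcest, with 0.0573, 0.0269 and 0.0173 FPKM against 0.131, 0.0283 and 0.0760, between about 0.957 and 8.86 reads a library. *Bub1* ran from 0.0516 to 0.0995 FPKM over the 6 libraries, *Ttk* from 0.103 to 0.174 and *Birc5* from 0.216 to 0.358, with overlapping groups. *Birc5* had about 25.2 to 43.7 reads a library. *Bub1*, *Ttk* and *Aurkb* had at most 16.7 reads a library, and their 95% intervals in the fit that kept low genes were -0.48 to 0.25, -0.19 to 0.46 and -0.19 to 0.96 on the log2(FPKM + 0.1) scale, which shrinks differences at such levels.

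Set beside each other without a test, 9 of the 10 genes were higher in every spleen than in every brain library, the exception being *Mad1l1*. For *Incenp* this margin was narrow, the lowest spleen value being 1.02 times the highest brain value. Between the *Norad*+/+ means the spleen level was 387 times the brain level for *Aurkb*, 322 times for *Birc5* and 88.3 times for *Bub1*. *Cdc20*, *Ttk* and *Bub1b* followed at 35.3, 33.4 and 22.7 times, the low brain levels leaving these ratios imprecise. *Mad2l1* stood at 6.66, *Incenp* at 4.24, *Bub3* at 1.99 and *Mad1l1* at 1.42 times. *Bub3* and *Mad1l1*, the genes with the smallest range over the spleen libraries, were also those whose level differed least between the tissues. The order of the *Norad*+/+ means in spleen ran from *Birc5* (96.8 FPKM) through *Bub3*, *Incenp*, *Mad2l1*, *Bub1b*, *Aurkb*, *Mad1l1*, *Cdc20* and *Bub1* to *Ttk* (4.13 FPKM). The ranges of *Bub1b*, *Aurkb*, *Mad1l1* and *Cdc20*, neighbours in that order, overlapped over their 3 libraries. Within each *Norad*+/+ spleen library *Bub1b* was above *Aurkb* and *Aurkb* above *Cdc20*, while the place of *Mad1l1* varied.

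Whether the genotype difference itself differed between tissues was tested as an interaction over all 12 libraries. The study names brains and spleens of 3 mice per genotype, so the tissues may share animals. The labels do not say whether libraries of one number came from one mouse, and the main fit took all 12 as independent. An adjusted p of 0.05 was passed by 0% of 14192 genes (limma). At an unadjusted p under 0.05 the spleen difference was lower for 10.7% of all genes and higher for 4.03%, and it lay below the brain difference for 58.5%. *Bub1*, *Bub1b*, *Ttk*, *Cdc20*, *Aurkb* and *Birc5* entered this fit through their spleen level alone, with brain means under 1 FPKM. For that reason no count over the 10 is drawn from it. The 4 genes whose mean reached 1 FPKM in each tissue were therefore also fitted among the 10481 genes that met this in both, a choice made after seeing the data. *Mad2l1* had a spleen minus brain difference of -0.76 (95% interval -1.34 to -0.18, unadjusted p = 0.0155, limma adjusted p = 0.26). It was the one of the 4 under an unadjusted p of 0.05, beside 10.1% of these genes lower and 4.26% higher. For *Incenp* the difference was -0.67 (95% interval -1.77 to 0.44), for *Mad1l1* -0.22 (-0.72 to 0.28) and for *Bub3* -0.19 (-0.94 to 0.55). All 4 lay below 0, as did 56.3% of these genes, and none passed the adjusted threshold, where 0.0191% did. In the fit with a mean of 1 FPKM over all libraries but *Norad*+/+ spleen replicate 3, *Mad2l1* had -0.57, *Incenp* -0.42, *Mad1l1* -0.11 and *Bub3* 0.08. Without *Norad*-/- spleen replicate 3, 2.23% of genes passed. *Ttk* was among them (-1.67, limma adjusted p = 0.0471). It had entered through spleen alone and had at most 0.174 FPKM in brain, so nothing is read from that call. The spleen and brain differences are shown with their intervals.

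**Figure D5:**
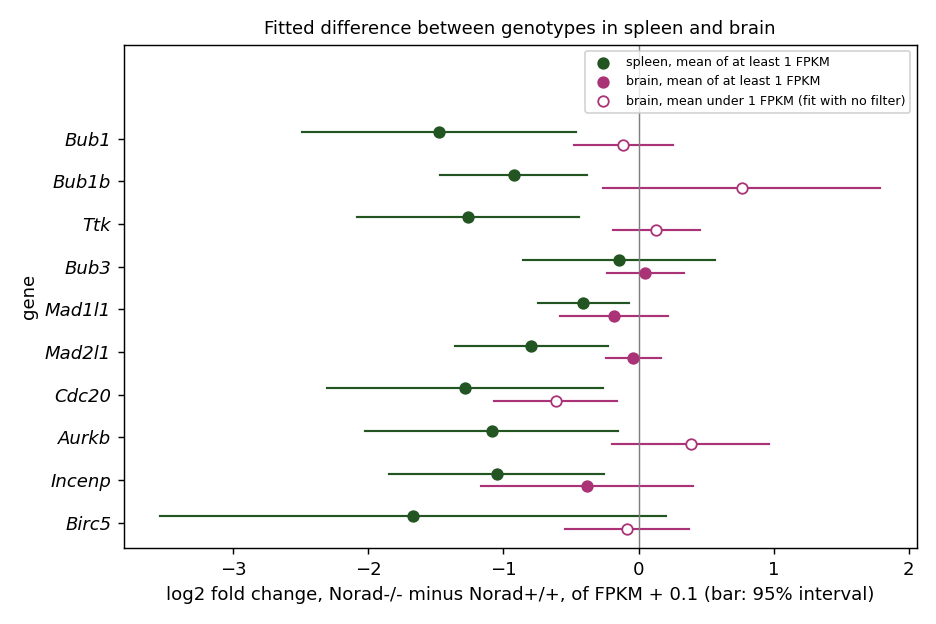
Log2 fold change of *Norad*-/- against *Norad*+/+ with its 95% interval from limma, for each gene in spleen (green) and brain (purple). Open symbols are genes under 1 FPKM in brain, fitted without the filter. In spleen 8 of 10 intervals lie below 0, all but those of *Bub3* and *Birc5*.

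The ranges of genes with and without a PRE overlapped. In *Norad*-/- spleen the 5 genes with a PRE ran from -1.67 (*Birc5*) to -0.14 (*Bub3*), and the 5 without from -1.47 (*Bub1*) to -0.41 (*Mad1l1*). *Mad2l1*, with 2 PREs, had -0.79. *Bub3*, with both a CHR and CCAAT letters, had the difference nearest to 0, and *Birc5*, with neither of these but with the CHR variant, the lowest. Whether PREs or promoter elements bear on these differences was not tested.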

How the data were processed

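Total RNA of brain and spleen was made into stranded mRNA libraries and read as single 75-base reads. The authors aligned reads to GRCm38 with TopHat2 2.0.12 and deposited FPKM values per gene, made with StringTie 1.2.2 per the submitters' processing notes. FPKM are not counts, so the count test of the study was not used (its edgeR version was 3.8.6, on featureCounts 1.4.6 counts). Value columns that belong to no sample numbered 0. The members and lists were chosen with earlier results of these data known.

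Genes whose mean reached 1 FPKM over a tissue's libraries were tested with limma 3.58.1 (R 4.3.3, variance trend) on log2(FPKM + 0.1), which understates changes of low genes. P was adjusted by Benjamini-Hochberg over all genes tested, with a threshold of 0.05. The interaction was fitted to genes whose mean over all 12 reached 1 FPKM. Each group holds 3 libraries, and nothing in the labels says that they came from separate mice, though the study describes mice as replicates. Depth was estimated from the FPKM that 1 read gives at genes with 1 transcript, and it sets the precision of low values. All 10 members are named, and up to 4 genes of each other list, by smallest p. Lists are described by counts and medians. The steps were tested on simulated data. Alternatives were other pseudocounts, filters, scalings, variance models, library weights, covariates, a block, and leaving out each library. Python 3.11.15, pandas 2.3.3, numpy 2.4.6, scipy 1.17.1 and matplotlib 3.10.9 were used.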

Additional observations from a re-analysis of the deposited data

How the results depend on the processing

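In spleen, limma called 0 of the 10 genes under each setting except library weights, which called 9 of the 10 and 4730 genes. Those weights did not converge and gave 22.6 to *Norad*+/+ spleen replicate 2, against 0.291 to 1.21 to the others. The count over all genes, 4 as reported, was 2 with no filter, with TPM and with quantile normalization, and 1 with either covariate. With 1 library left out it ran from 1 to 93, and the median of the 10 genes from -1.38 to -0.81. That median was 0.038 with the dividing-cell covariate, which turned *Aurkb* to 0.26, *Birc5* to 0.88, *Bub3* to 0.84, *Cdc20* to 0.18 and *Incenp* to 0.085. It was -0.27 with the red cell precursor covariate, which turned *Birc5* to 0.40 and *Bub3* to 0.51. With 1 library left out *Bub3* ran from -0.38 to 0.13 in spleen and from -0.43 to 0.079 in the interaction, above 0 without *Norad*+/+ spleen replicate 3. The covariates are measured in the same libraries and differ between the genotypes. The causes of these shifts were not tested.

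In brain the count over all genes, 2 as reported, was 119 with library weights, 1 with the dividing-cell covariate and 1 to 15 with 1 library left out. The median of the 4 tested genes then ran from -0.18 to 0.004. *Incenp* ran from -0.58 to 0.012, the last without *Norad*+/+ brain replicate 3. *Bub3* ran from -0.024 to 0.12, below 0 without *Norad*-/- brain replicate 3, and *Birc5*, fitted without the filter, from -0.24 to 0.023, above 0 without *Norad*+/+ brain replicate 2. The interaction called 0 genes as reported, 2 with a pseudocount of 0.01, 15 with a pseudocount of 1, 3 with quantile normalization, 2 among genes whose mean reached 1 FPKM in each tissue (chosen after seeing the data) and 0 to 317 with 1 library left out, the last without *Norad*-/- spleen replicate 3. The median of the 4 genes whose mean reached 1 FPKM in each tissue was -0.45. No median or count over the 10 is given, since 6 of them were under 1 FPKM in brain.

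Deviations of same-numbered libraries of the genotypes correlated at 0.338, -0.147 and 0.290 in spleen, where other pairs ran from -0.477 to 0.360. In brain they correlated at 0.061, 0.068 and 0.110, each above the other pairs (-0.092 to 0.040). The numbers were not taken to pair the libraries in the main fits. With a replicate block 1 gene was called in spleen, 1 in brain and 0 in the interaction. Of the 10 genes 0 were called in spleen, with 0.0617 as their smallest adjusted p (limma).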

Other observations

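Lymphocyte markers of the same spleen libraries lay on the other side of 0. All 7 T cell markers had a log2 fold change above 0 and an unadjusted p under 0.05, with a median of 0.64 and non-overlapping groups, beside 7.42% of all genes higher at that threshold and 11.6% with every *Norad*-/- library above. Their summed level was 276 to 335 FPKM in *Norad*+/+ and 407 to 513 FPKM in *Norad*-/- spleen. Of 7 B cell markers 7 were above 0 (median 0.19), and of 6 plasma cell markers 5 (median 0.28). None passed the adjusted threshold (limma). Without *Norad*+/+ spleen replicate 3 the medians were 0.59 for T cells, 0.06 for B cells and 0.25 for plasma cells.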
